A study of Mus musculus with 6 samples.

Results

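miR-21a (mmu-miR-21a) is the mouse miR-21, a microRNA cut from the hairpin mir-21a, and both strands of that hairpin were counted. The members are every mature name in the count table that begins with miR-21a, which gives miR-21a-5p and miR-21a-3p, 2 of the 535 mature miRNAs listed. Both strands summed to more than 10 counts in the 6 libraries together and entered the test of 525 miRNAs.

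A microRNA is a short RNA that guides an Argonaute protein to messenger RNAs by pairing through its seed, the bases near its 5′ end. One strand of the Dicer product, the guide, is usually kept in Argonaute and the passenger strand is degraded. miR-21 is transcribed in response to growth, inflammatory and TGF-β signals, represses Pdcd4 among other messages, and is known in the adult kidney for its increase after injury and in fibrosis.

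Small RNA was sequenced from nephron progenitors (3 libraries, MNP) and from whole kidney (3 libraries, MWK) of wild-type CD1 mouse embryos at embryonic day 15.5, each library pooling the embryos of 1 litter. The methods name 3 litters as the source of both groups, so with 1 litter per library the groups share litters. Which progenitor and whole kidney libraries came from the same litter is not given in the sources used here. A limited digestion of the kidneys gave the cells from which the progenitors were prepared. These cells were depleted with beads carrying antibodies to CD140a, CD105, Epcam and Ter119, aimed at stromal, endothelial, epithelial and erythroid cells. The progenitors are therefore a population enriched by negative selection. The libraries called whole kidney came from the kidney remnants after that digestion, not from intact kidneys. RNA of the progenitors was purified with the Micro version of the column kit and RNA of whole kidney with the Mini version, so kit, isolation and group cannot be told apart. Libraries MNP6 and MWK6 bear numbers that no sample title carries and were used by their group alone. Total miRNA counts per library ran from 333850 in MNP6 to 436112 in MNP2. The comparison asks how much miR-21a the progenitors hold relative to these kidney remnants.

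In mm10 coordinates mir-21a lies on the minus strand of chromosome 11 at chr11:86584067-86584158. GENCODE places all of it in exon 12 of Vmp1, a gene for a membrane protein of autophagy transcribed from the same strand (chr11:86583865-86683836), within the stretch annotated as untranslated (chr11:86583865-86585310). Reads of the hairpin and of the Vmp1 message around it were not separated here. The 5p strand takes up bases 18 to 39 of the 92-base hairpin (chr11:86584120-86584141) and the 3p strand bases 56 to 77 (chr11:86584082-86584103). The table also lists miR-21b, from chr3:29636744-29636851 on the plus strand, and miR-21c, from chr8:128278148-128278225 on the minus strand. The mature strands are shown because near-identical copies could share reads; they come from RefSeq (GRCm38.p6), run 5′ to 3′, and have the seed, bases 2 to 8, in capitals:

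miR-21a-5p: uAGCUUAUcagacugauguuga

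miR-21a-3p: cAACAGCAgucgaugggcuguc

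miR-21b: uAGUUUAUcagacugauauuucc

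miR-21c: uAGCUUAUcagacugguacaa

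Counting positions from 1 at the 5′ end of miR-21a-5p, miR-21b differs from it at 4 of 22 bases (C4U, G18A, G21U and A22C), the first of which falls in the seed. miR-21c has the same seed and differs at 5 of 21 bases, all beyond it (A16G, G18A, U19C, U20A and G21A). Among RefSeq mouse miRNAs the seed AGCUUAU occurs in these 2 strands, miR-21a-5p and miR-21c, and the seed AACAGCA of miR-21a-3p occurs in 1, miR-21a-3p itself. miR-21b had 2, 3 and 3 counts in MNP1, MNP2 and MNP6, against 2, 4 and 5 in the whole kidney libraries. miR-21c had 2, 5 and 4 counts in the progenitor libraries and 2, 4 and 7 in whole kidney, in the same order. Reads of the copies could be assigned to one another, but miR-21a-5p made up between 99.93% (MNP6) and 99.99% (MWK1) of the counts that carry its seed, so nearly all counts with this seed were those of miR-21a-5p in each of the 6 libraries.

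miR-21a-5p, the guide strand, was lower in nephron progenitors. It had 8864 counts in MNP1, 11772 in MNP2 and 6138 in MNP6, against 15099 in MWK1, 15535 in MWK2 and 12859 in MWK6. After TMM scaling to CPM, counts relative to a common library total, these became 21824, 25645 and 16130 CPM in the progenitor libraries and 45404, 48917 and 37535 CPM in whole kidney. All 3 whole kidney libraries lay above all 3 progenitor libraries, and the highest progenitor library, MNP2, stood at 68.3% of the lowest whole kidney library, MWK6. Of the 525 miRNAs tested, 122 (23.2%) were separated in this direction. Mean levels were 21199 ± 4788 CPM for progenitors and 43952 ± 5828 CPM for whole kidney (± SD of 3 libraries). By the quasi-likelihood test of edgeR, Benjamini-Hochberg adjusted over the 525 miRNAs, the log2 fold change, nephron progenitor over whole kidney, was -1.05 (standard error 0.17, adjusted p = 0.00038), lower in 3 of 3 libraries. Thus 1 of the 2 strands passed the threshold of 0.05 as lower in progenitors, as did 17.1% of all miRNAs tested; counting either direction, 36.6% passed. Fewer cells that express miR-21a and less miR-21a per cell cannot be told apart in RNA from many cells.

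**Figure D1:**
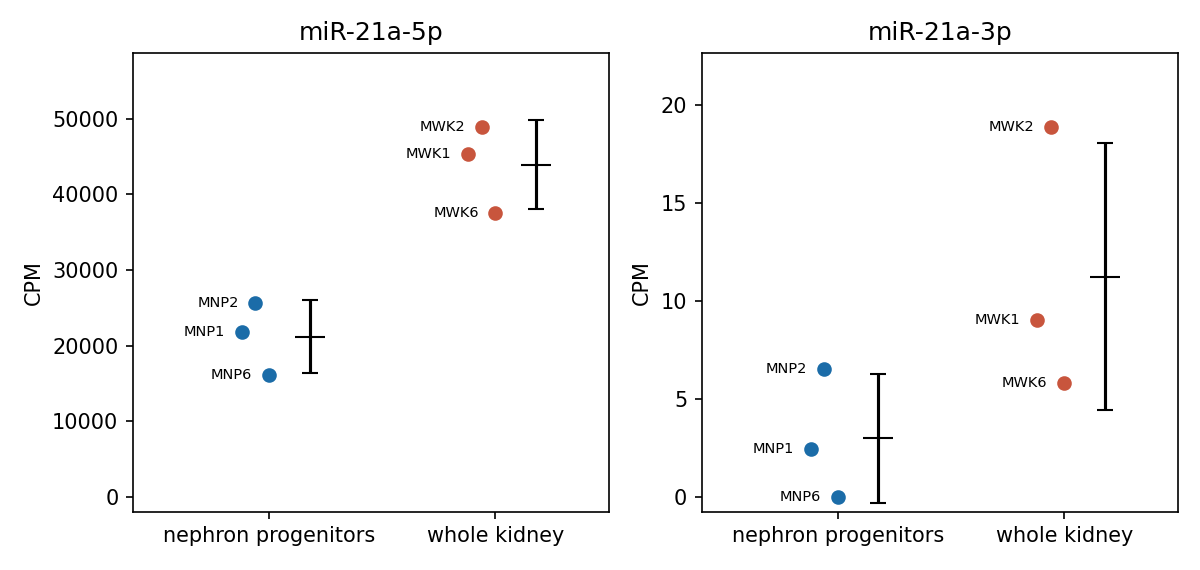
CPM of miR-21a-5p and miR-21a-3p in each library, with the mean and SD of each group (n = 3) drawn beside the points; the y axes differ between the panels. For miR-21a-5p the progenitor libraries lie between 16130 and 25645 CPM and the whole kidney libraries between 37535 and 48917 CPM, while for miR-21a-3p the groups overlap.

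The size of the difference placed miR-21a-5p at 78 of 525 when miRNAs were ordered from the largest decrease to the largest increase, and at 58 by p. Among the 91 miRNAs with a mean of at least 1000 CPM it was number 11 from the lowest. Of these abundant miRNAs 21 were lower and 22 higher in progenitors past the threshold, with a median log2 fold change of -0.06, against -0.01 over all 525. The balance among abundant miRNAs is given for TMM only, a scaling that itself centres fold changes, so nothing is concluded from it. Over all 525, 102 passed as higher and 90 as lower, or 121 and 74 with library totals. miR-21a-5p was among the abundant miRNAs that decreased.

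As a share of all miRNA counts, the 2 strands together held 2.25% of MNP1 (95% exact Clopper-Pearson interval 2.204% to 2.297%), 2.70% of MNP2 (2.65% to 2.75%) and 1.84% of MNP6 (1.79% to 1.89%). The share was 4.32% in MWK1 (4.26% to 4.39%), 4.31% in MWK2 (4.25% to 4.38%) and 3.61% in MWK6 (3.55% to 3.68%). The intervals cover counting error only, since the reads carry no molecular identifiers, and none of the progenitor intervals meets one of whole kidney. The mean share was 2.26% ± 0.431 (SD, n = 3) in progenitors. Whole kidney had 4.08% ± 0.407 (SD, n = 3), and the difference was -1.82 percentage points (two-sided exact permutation test, p = 0.1, which is the lowest value possible with 3 libraries a group). In the order of points lost between whole kidney and progenitors, miR-21a-5p came after miR-30a-5p (-3.84 points) and miR-143-3p (-3.14 points).

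In the order of mean CPM miR-21a-5p was number 9 in progenitors and number 6 in whole kidney. In single libraries its rank was 7, 8 and 10 for MNP1, MNP2 and MNP6, and it was 5, 5 and 7 for MWK1, MWK2 and MWK6. In progenitors its neighbours in that order were miR-143-3p (24996 ± 3455 CPM) and let-7f-5p (24586 ± 5373 CPM) above it and miR-100-5p (20797 ± 7242 CPM) and miR-26a-5p (17806 ± 1628 CPM) below it, and the libraries of each overlapped with those of miR-21a-5p. In whole kidney miR-30a-5p (53102 ± 7870 CPM) and let-7i-5p (46324 ± 942 CPM) stood above it and let-7j (38967 ± 788 CPM) below it, again with overlapping libraries. The next in whole kidney, let-7f-5p (25616 ± 2674 CPM), lay apart from it, with no library reaching the lowest of miR-21a-5p. Levels of different miRNAs were compared as read counts, which ligation and amplification can favour unequally. Counts of let-7j followed those of let-7i-5p across the libraries, from 20052 and 24087 in MNP2 to 12527 and 14970 in MWK2. Whether these names share reads was not tested, and both entered the ranks and the total counts.

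The coefficient of variation of miR-21a-5p was 22.6% among progenitor libraries and 13.3% among whole kidney libraries, where counting alone gives 1.06% and 0.831%. Of the 91 abundant miRNAs, 64 varied less than miR-21a-5p in progenitors and 73 varied less in whole kidney, and their median coefficients were 15.9% and 8.43%. The library with the lowest miR-21a-5p was MNP6 in progenitors and MWK6 in whole kidney, the pair without a matching sample title.

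miR-21a-3p, the passenger strand, was close to the limit of detection. It had 1 count in MNP1, 3 in MNP2 and 0 in MNP6, and 3 in MWK1, 6 in MWK2 and 2 in MWK6. In CPM these are 2.46, 6.54 and 0 in the progenitor libraries and 9.02, 18.9 and 5.84 in whole kidney. The groups overlapped, as MNP2 lay above MWK6, and the highest value belonged to MWK2. For MNP6 a count of 0 allows a share of up to 0.000899% of its counts, that of 3 counts. Pooled over libraries, 4 of 1163913 counts in progenitors and 11 of 1065310 in whole kidney give a ratio of shares of 0.333, with a 95% exact interval for counting error from 0.0773 to 1.12. The strand did not pass the threshold in the same edgeR test (adjusted p = 0.18), and a difference was not detected at these counts. Near it in mean CPM were miR-24-1-5p, miR-3064-5p, miR-195a-5p and miR-3082-5p in progenitors and miR-299a-5p, miR-299b-5p, miR-93-3p and miR-324-3p in whole kidney, each with overlapping libraries.

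The arms of mir-21a were among the most unequal in the table. miR-21a-3p made up 0.0113% of the counts of both arms in MNP1 (95% exact interval 0.000286% to 0.0628%), 0.0255% in MNP2 (0.00525% to 0.0744%) and 0% in MNP6, where 0 of 6138 allows up to 0.0489% when 3 counts are taken as the limit. It made up 0.0199% in MWK1 (0.00410% to 0.0580%), 0.0386% in MWK2 (0.0142% to 0.0840%) and 0.0156% in MWK6 (0.00188% to 0.0562%). The intervals of the 5 libraries with a 3p count all overlap. Over the 6 libraries there were 70267 counts of the 5p strand and 15 of the 3p strand, a lesser share of 0.0213% (0.0120% to 0.0352%). Among miRNAs with counts on both arms, 81 had more of the 5p arm, 59 more of the 3p arm and 1 equal counts, and the median share of the lesser arm was 12.9%. miR-21a came first of these toward 5p, and no pair toward 3p had a smaller lesser share. Each strand in the table has at least 10 counts in all, so pairs with a rarer lesser arm were not ranked. Next to it were miR-99a with 48663 counts of 5p and 23 of 3p (0.0472%), let-7i with 110531 and 65 (0.0588%), and miR-20a with 21024 and 16 (0.0760%). The interval of miR-21a overlaps with that of miR-99a (0.0299% to 0.0709%) and lies below those of let-7i (0.0454% to 0.0749%) and miR-20a (0.0435% to 0.1235%). Arms whose names carry a locus number were left out of this order and added after the values had been seen. Of 26 such arms, matched through a shared precursor, 0 had a smaller share than miR-21a-3p, and let-7f-1-3p, with 19 counts beside 56204 of let-7f-5p, came closest (0.0338%, interval 0.0204% to 0.0528%), overlapping with miR-21a. A very unequal pair needs many counts to be seen as such, and among the 23 pairs whose greater arm had at least 10000 counts the median lesser share was 0.613%, with none below miR-21a.

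**Figure D2:**
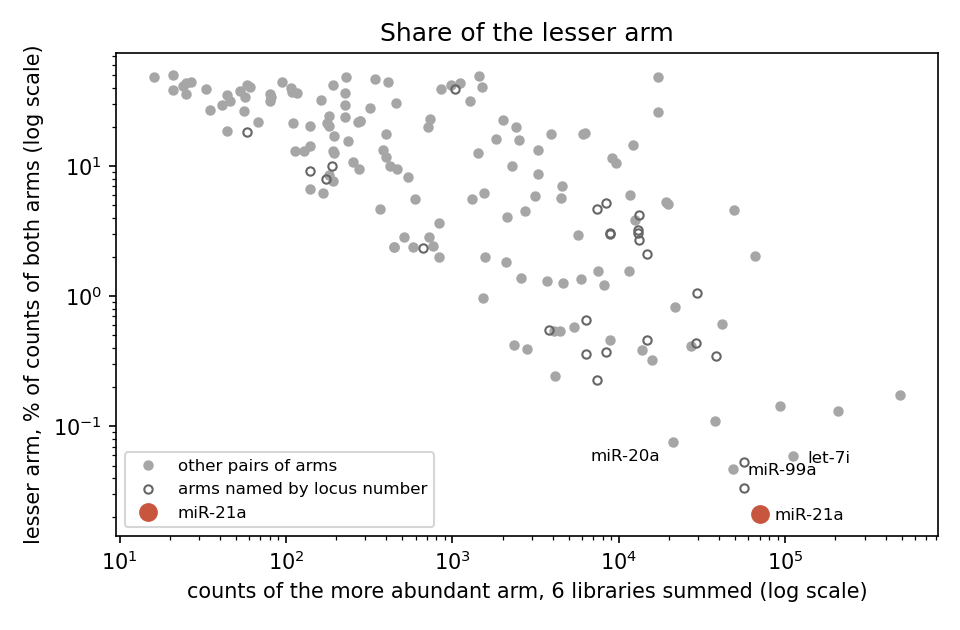
Each point is a miRNA with counts on both arms, open where the name of an arm carries a locus number, placed by the counts of its more abundant arm summed over 6 libraries (x axis, log scale) and by the share of its lesser arm in percent (y axis, log scale). miR-21a, at 70267 counts and 0.0213%, is the lowest point, and the named points are the nearest of the filled ones.

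The strands of mir-21a also differ in their first base, U in the 5p strand and C in the 3p strand. First bases could be read for both arms in 110 of the pairs with unequal counts. The more abundant arm began with U in 55 of them and the lesser arm in 30 (27.3%), while the lesser arm began with C in 35 (31.8%).

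On the log2 scale, with 0.5 added to each count, the ratio of 5p to 3p stood at 12.53 for MNP1, 11.72 for MNP2 and 13.58 for MNP6, and at 12.07 in MWK1, 11.22 in MWK2 and 12.33 in MWK6. The groups overlapped, and the highest ratio, in MNP6, rests on a 3p count of 0. The mean was 12.61 ± 0.94 (SD, n = 3) in progenitors and 11.88 ± 0.58 (SD, n = 3) in whole kidney, 0.73 apart (two-sided exact permutation test, p = 0.4). The difference ran from 0.25 without MNP6 to 1.18 without MNP2, and from 0.39 with a pseudocount of 1 to 1.54 with 0.1. In limma's test of arm ratios, which needs a mean of at least 10 counts in the lesser arm, 16 of 67 pairs (23.9%) passed the threshold, and miR-21a had too few 3p counts to enter.

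To see which miRNAs varied across the libraries most as miR-21a does, log2 CPM of each miRNA was centred on its mean over the 6 libraries, and the root-mean-square difference was taken. Over the 202 other miRNAs with a mean of at least 50 counts, the median difference from miR-21a-5p was 0.63. The nearest was miR-30c-2-3p at 0.12, the passenger strand of a miR-30 hairpin. Then came miR-34c-5p at 0.19, of a family induced by p53, miR-27b-3p at 0.19, of the miR-23b cluster, miR-30e-5p at 0.21 and miR-6240 at 0.22. Since the measure includes the difference between the groups, the choice of these 5 fixed that they would be lower in progenitors, with log2 fold changes between -1.30 (miR-34c-5p) and -0.81 (miR-30e-5p). miR-30c-2-3p, for example, changed by -1.28 (standard error 0.23, adjusted p = 0.00066) at a far lower level, 124 CPM in progenitors and 303 CPM in whole kidney on average. For miR-21a-3p, with its few counts, the nearest were miR-23a-3p at 0.19, miR-21a-5p at 0.28, miR-27b-3p at 0.33, miR-23b-3p at 0.33 and miR-27a-3p at 0.33; over all compared miRNAs the median was 0.73.

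**Figure D3:**
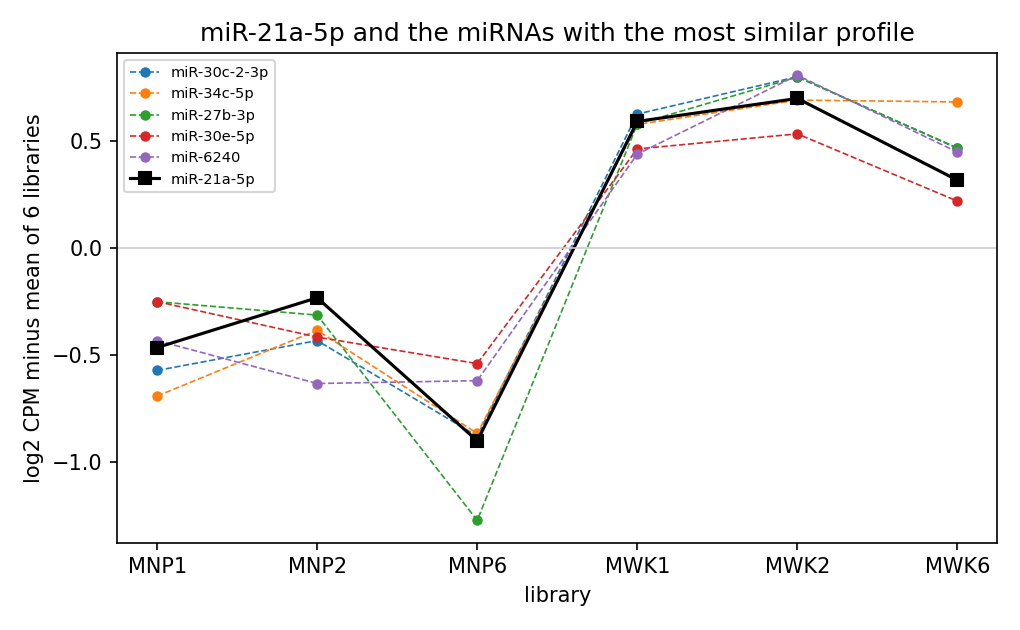
Log2 CPM minus its mean over 6 libraries (y axis) in each library (x axis) for miR-21a-5p, in black, and the 5 miRNAs with the smallest root-mean-square difference from it; lines join the points of 1 miRNA and carry no order of libraries. All 6 miRNAs are below 0 in the progenitor libraries and above 0 in the whole kidney libraries.

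Near mir-21a on chromosome 11, within 2 Mb, the table holds mir-301a (chr11:87113004-87113089), mir-142a (chr11:87756864-87756927) and mir-378b (chr11:88352773-88352864), all on the plus strand, opposite to mir-21a. The position of mir-142a is missing from the table and was taken from RefSeq, and 9 mature names without a position in either were not placed. miR-301a-5p had 31, 33 and 25 counts in the progenitor libraries, against 29, 32 and 32 in whole kidney. In CPM its progenitor libraries, at most 76.3, lay below those of whole kidney, at least 87.2. Of all 525 miRNAs tested, 23.2% were separated in this direction. miR-301a-3p had at most 12 counts in any library, miR-142a-5p at most 16, miR-142a-3p at most 32 and miR-378b at most 239. None of the 5 strands passed the threshold of edgeR's test, beside 36.6% of all 525 miRNAs in either direction. Their log2 fold changes in that test, in this order, were -0.39 (adjusted p = 0.26), 0.17 (adjusted p = 0.82), -0.14 (adjusted p = 0.81), 0.74 (adjusted p = 0.26) and -0.23 (adjusted p = 0.50). At an unadjusted p, or by DESeq2 or limma-voom, 0 of them passed.

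miR-21a-5p also holds the letters CAGAC, from base 9 on, which is the core of a Smad-binding RNA motif described in miR-21 and other TGF-β-regulated hairpins. On the strand as written, these letters occur in 6 of the 440 measured strands with a sequence in RefSeq (1.36%), of which miR-21b and miR-21c are 2, and in 28 of all 1679 RefSeq mature strands (1.67%). Over whole RefSeq hairpins, which are longer, they occur in 80 of 1005 (7.96%).

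Of 29 miRNAs known for kidney injury and fibrosis, the setting in which miR-21 is best known, 28 were tested. In progenitors 12 of the 28 were lower and 5 higher past the threshold of edgeR's test, beside 17.1% lower and 19.4% higher among all 525. Increases were thus about as frequent as over all miRNAs and decreases more frequent, a difference that was not tested. Of the 12 that were lower, 7 are also epithelial markers. The median log2 fold change of the list was -0.44, against -0.01 over all 525, or -0.24 with library totals in place of TMM, a scaling that moved the median of all miRNAs by 0.20. The most abundant in whole kidney, miR-30a-5p, a tubular miRNA, was at 10206 ± 852 CPM in progenitors and 53102 ± 7870 CPM in whole kidney (± SD of 3 libraries; log2 fold change -2.38, standard error 0.15, adjusted p = 4.9e-08), while miR-30d-5p was the most abundant in progenitors (15390 CPM). The largest fall was that of miR-200a-3p, which maintains the epithelial state (log2 fold change -6.86, standard error 0.38, adjusted p = 1.2e-08), and the largest rise past the threshold that of miR-382-5p (2.05, standard error 0.29, adjusted p = 0.00010). Summed over the list, the progenitors stood at 42.9% of whole kidney.

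Of the 7 miRNAs induced, like miR-21, by growth or inflammatory signals, 1 passed the threshold, where 36.6% of all miRNAs did. It was miR-132-3p, a CREB-induced miRNA that was higher in progenitors (log2 fold change 1.09, standard error 0.34, adjusted p = 0.022). The median of these 7 was 0.32, or 0.53 with library totals, and the most abundant, miR-146b-5p, an NF-κB target, was at 970 CPM in progenitors and 976 CPM in whole kidney on average. Together they were at 108% of the whole kidney level.

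Markers of the cells targeted by the selection differed in how far they were lower in progenitors, and some were not. Over all 525 miRNAs 17.1% were lower and 19.4% higher past the threshold. Of 9 epithelial markers 9 were lower. Their summed level was 845, 930 and 623 CPM in MNP1, MNP2 and MNP6. It was 26625, 28176 and 23897 CPM in MWK1, MWK2 and MWK6, so that progenitors were at 3.05% of whole kidney on average. miR-200a-3p was the most abundant in whole kidney and miR-192-5p in progenitors (476 CPM), and miR-141-3p was at 0 in all 3 progenitor libraries. The median log2 fold change of the list was -6.46, or -5.50 with miR-141-3p taken at the 3-count floor of each library.

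Of 5 endothelial markers 3 were lower and 0 higher, against the same 17.1% and 19.4%. They summed to 837, 1179 and 1335 CPM in the progenitor libraries and 20917, 22206 and 18868 CPM in whole kidney, in the same order, or 5.41%. miR-126a-3p was the most abundant and fell furthest (log2 fold change -5.23, standard error 0.19, adjusted p = 2.6e-10). Without it the other 4 summed to 615 CPM in progenitors and 1839 CPM in whole kidney on average, or 33.5%. Of these, miR-221-3p, at 0.33 (adjusted p = 0.43), and miR-222-3p, at 0.32 (adjusted p = 0.35), did not pass the threshold. Of 5 erythroid markers 5 were lower, against 17.1% of all, with sums of 529, 401 and 271 CPM against 1846, 1826 and 952 CPM, or 25.97%. miR-486a-5p and miR-486b-5p hold the same count in all 6 libraries, and with miR-486b-5p left out the sum was at 22.5%. miR-451a was the most abundant of them in whole kidney and miR-486a-5p in progenitors, and miR-144-3p fell furthest (-2.73, standard error 0.44, adjusted p = 0.00033).

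Markers of stroma, pericytes and smooth muscle were closer between the groups. Of 6, 2 were lower and 1 was higher past the threshold, beside 17.1% and 19.4% of all, with a median log2 fold change of 0.20. With library totals in place of TMM 2 were lower and 2 higher, with a median of 0.42. Their sum was 36682, 48752 and 49535 CPM in MNP1, MNP2 and MNP6, against 75535, 87389 and 72664 CPM in MWK1, MWK2 and MWK6, or 57.3%. Without miR-143-3p the other 5 summed to 19994 CPM in progenitors and 15739 CPM in whole kidney on average, or 127%. Most of the sum over the list was miR-143-3p, at 24996 ± 3455 CPM in progenitors, against 62790 ± 7301 CPM in whole kidney (log2 fold change -1.33, standard error 0.15, adjusted p = 1.5e-05). miR-145a-5p, from the same cluster, fell furthest (-1.86, standard error 0.24, adjusted p = 6.1e-05), while miR-199b-5p was higher in progenitors (0.79, standard error 0.16, adjusted p = 0.0018).

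Of 6 leukocyte markers 0 passed the threshold of edgeR's test, beside 36.6% of all 525 in either direction. At an unadjusted p, and by DESeq2 or limma-voom, it was also 0. Their sums were between 94.6 and 216.7 CPM in the progenitor libraries and between 128 and 220.4 CPM in whole kidney. The most abundant was miR-146a-5p, and the median log2 fold change was -0.17, or 0.03 with library totals. miR-223-5p, the other arm of a listed strand, was not on the list. It had 4, 8 and 7 counts in MNP1, MNP2 and MNP6 and 0 in each whole kidney library, and passed edgeR's test as higher (adjusted p = 0.005). Of 3 skeletal muscle markers 1 was higher, beside 19.4% of all: miR-206-3p, with 76, 129 and 25 counts in MNP1, MNP2 and MNP6, against 0, 5 and 1 in MWK1, MWK2 and MWK6. The skeletal muscle sums were 300.4, 438 and 131 CPM against 66.2, 113 and 61.3 CPM. No miRNA on these lists marks nephron progenitors. miR-21a-5p is made by many cell types, and the part of each of these populations in its lower level was not tested.

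**Figure D4:**
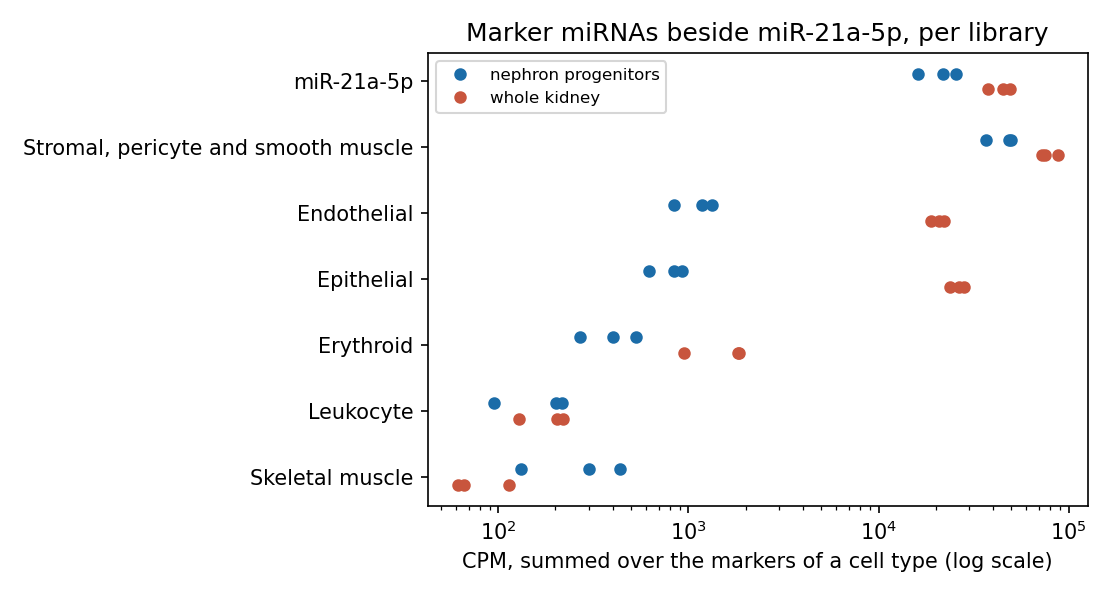
CPM of miR-21a-5p and CPM summed over the marker miRNAs of 6 cell types (x axis, log scale), 1 point per library. The endothelial and epithelial sums of the progenitor libraries, at most 1335 and 930 CPM, lie far below those of whole kidney, whereas those of miR-21a-5p and of the stromal, pericyte and smooth muscle sum lie closer to it.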

How the data were processed

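The small RNA libraries used total RNA and a ligation-based kit. Per the methods of the study and the submitters' processing notes, reads were trimmed with BBDuk, aligned to mm10 with Bowtie2 2.2.3 and quantified with miRDeep2. The authors deposited estimated counts per pair of mature miRNA and precursor, without normalization; 3 of 792 rows hold fractions, and all expected counts were rounded. The highest count over rows of 1 mature name was used, and each miR-21a strand has 1 row.

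Counts with a sum above 10 were scaled by TMM and tested with edgeR 4.0.16 (quasi-likelihood, 2 groups, Benjamini-Hochberg over 525 miRNAs, threshold 0.05) in R 4.3.3. The design had assumed counts, and rounded expected counts were tested the same way. Standard errors equal the size of the log2 fold change over √F. The planned limma 3.58.1 row for the arm ratio of miR-21a was lost to the filter on the lesser arm, so its exact permutation test is given. Exact intervals used SciPy 1.17.1, figures matplotlib 3.10.9. In CPM, 3 counts are between 6.54 and 9.45. The steps were tested on simulated data.

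Named miRNAs are both strands, copies and seed sharers, the 2 neighbours on each side in mean CPM, the 5 nearest profiles (prior count 2), miRNAs within 2 Mb, the nearest 3 pairs in arm ratio, and from each list the most abundant member and the largest changes. The members and lists were chosen with earlier results of these data known, and the CAGAC search was added after the values had been seen. Alternatives covered DESeq2 1.42.0, limma-voom, scaling, filters, rows, pseudocounts, denominators, the replicate block and leaving out libraries singly. A further list of miRNAs in the design is not reported here. The main tests took the libraries as unpaired, so p-values measure the spread between these litter pools with shared litters not modelled.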

Additional observations from a re-analysis of the deposited data

How the results depend on the processing

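miR-21a-5p was lower in progenitors past the threshold in all 16 alternatives, with adjusted p from 8.1e-06 to 0.0077 and log2 fold changes from -1.23 to -0.93 with 1 library left out and from -1.06 to -0.85 otherwise. The smallest of the latter came from library totals in place of TMM, which moved the median of all miRNAs by 0.20. miR-21a-3p did not pass it in any of the 14 alternatives that gave a value (adjusted p from 0.098 to 0.33); more than 10 counts in every library and leaving out MWK2 removed it. That equal numbers mark a shared litter is not stated. The differences between replicates 1 and 2 in each group correlated at 0.039 across 525 miRNAs. With the replicate block miR-21a-5p was at -1.02 in the 4 numbered libraries and without it at -1.02, with 153 and 134 miRNAs past the threshold. MNP6 and MWK6, which also share a number, entered neither the correlation nor the block. The number past the threshold was 102 higher and 90 lower (121 and 74 with library totals), and came to 120 of 260 in all under more than 10 counts in every library, where fewer were tested. Arm ratios past the threshold were 16, but 10 with a lesser arm of at least 50 counts, 8 with rows summed, and from 10 (without MNP1) to 15 with 1 library left out; beyond the stricter filter, the cause was not tested. The arm ratio difference of miR-21a was 0.73, 0.39 with a pseudocount of 1 and 1.54 with 0.1, as MNP6 has no 3p count, and 0.25 without MNP6, up to 1.18 without MNP2; the filtered limma fits, the one without the trend included, hold no value for it. The share difference was -4.33 points without the 10 most abundant miRNAs (miR-21a kept), where the denominator is smaller. The 3p strand and its ratio rest on few counts, unlike miR-21a-5p, and the effect of depth was not tested.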
